A study of Mus musculus with 8 samples.

Results

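The genes described here encode the subunits of the mitochondrial respiratory chain and of ATP synthase, together with a few of their assembly factors, in naive CD4+ T cells. They were chosen by symbol alone, as every gene whose symbol starts with Nduf, Uqcr, Atp5 or Cox4 to Cox8 or is Sdha, Sdhb, Sdhc or Sdhd. The rule found 90 of 22410 genes in the RNA data and the same 90 among 18603 windows around transcription start sites in the H3K27me3 data. By role, 36 belong to complex I, 4 to complex II, 8 to complex III, 18 to complex IV and 15 to complex V, the ATP synthase. Ndufa4 and Ndufa4l2 are counted with complex IV, to which Ndufa4 protein is now assigned. A further 7 are assembly or associated factors, and 2 are caught by their symbol only. These are Cox4nb, a gene of the endoplasmic reticulum membrane complex, and the pseudogene Atp5l-ps1.

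In this pathway, complexes I and II pass electrons from NADH and succinate to ubiquinone, complex III passes them to cytochrome c and complex IV to oxygen. The proton gradient that complexes I, III and IV build drives ATP synthesis by complex V. Naive T cells are resting cells that rely largely on oxidative phosphorylation, and they turn towards glycolysis when activated. Several complex IV subunits exist as pairs of isoforms, 1 made in most tissues and 1 restricted to muscle, lung or testis. H3K27me3, trimethylation of lysine 27 of histone H3, is a mark of silent genes set by the polycomb enzymes Ezh1 and Ezh2.

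H3K27me3 ChIP-seq and RNA-seq were made from the naive CD4+ T cells of lymph nodes, taken from 129SV/B6 mice, with 1 library per genotype and assay and 8 libraries in all. Ezh1 KO cells are Ezh1 -/-, lacking Ezh1 throughout the animal. Ezh2 KO cells are Ezh2 fl/fl CD4-cre, in which a Cre driven by Cd4 regulatory sequence acts on the floxed gene during T cell development. Double KO cells carry both changes, and WT cells carry neither. How many animals went into a library, and their age, are not given in the sources used here. With 1 library per genotype no value below has a replicate check, no test between genotypes was possible, and every ratio compares 2 libraries. All 3 comparisons with WT also share the same WT library.

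The height of 1 read in the files put the RNA depth at 70.4 M reads in Ezh1 KO, 40.7 M in Ezh2 KO, 94.1 M in double KO and 36.1 M in WT, and the ChIP depths between 78.2 and 88.2 M. Ezh1 RNA was 0.196 in Ezh1 KO, 1.12 in Ezh2 KO, 0.194 in double KO and 1.05 in WT, which matches the Ezh1 labels. Ezh2 RNA was 0.913, 1.08, 1.17 and 0.925 in the same order. A mean over all exons does not show the loss of a few of them, so these values are no check of the Ezh2 labels. All 13 naive CD4 T cell markers, Cd4, Cd3e and Il7r among them, were above 1 in every library. Their summed RNA was 228.9, 229.4, 228.3 and 259.2 in Ezh1 KO, Ezh2 KO, double KO and WT. The summed level of 10 B cell markers was 5.96, 9.59, 16.5 and 5.22, that of 10 CD8 and NK markers 3.41, 7.52, 5.48 and 4.31, and that of 7 cell cycle markers 5.21, 8.79, 6.74 and 5.26. No marker on these 3 lists was listed at 0.

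The RNA level of a gene is the mean over its exons of the highest coverage in each exon, per M reads. It is a height of coverage and is not divided by length, so levels of different genes are compared only as heights. Most of the set was well expressed: 66 of the 90 genes were at 1 or more in all 4 libraries, 8 were at 1 or more in some, and 16 stayed under 1 in every library. The median level was 3.09 in Ezh1 KO, 3.82 in Ezh2 KO, 3.56 in double KO and 4.38 in WT, where the medians of all 22410 genes were 0.058, 0.074, 0.064 and 0.062. Summed over the 90 genes, the level was 412.9, 475.3, 432.4 and 535.7. The summed level of all genes was 34606, 38292, 35081 and 38565, so the 2 deepest libraries had the lowest sums.

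**Figure D1:**
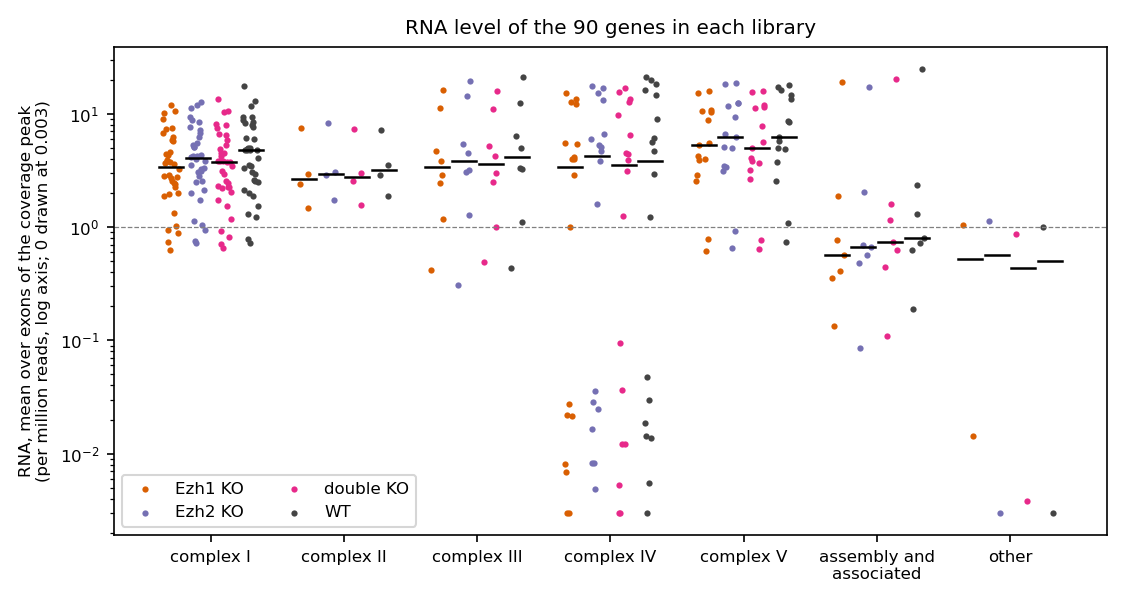
RNA level (mean over exons of the coverage peak, per M reads, log axis) of each of the 90 genes in the Ezh1 KO, Ezh2 KO, double KO and WT libraries, by complex. Each point is a gene, the bar is the median and the dashed line the minimum of 1, with 0 drawn at 0.003. In complex IV, 7 genes lie under 0.1 in every library and the other 11 lie near or above 1.

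Within WT the genes of each complex spanned a wide range. In complex I the highest was Ndufa13, a membrane-associated accessory subunit also known as Grim19, with 10.2 in Ezh1 KO, 11.3 in Ezh2 KO, 13.6 in double KO and 17.6 in WT. Its lowest was Ndufab1, the mitochondrial acyl carrier protein, with 0.626, 0.722, 0.649 and 0.724. Complex II ran in WT from Sdhc, a membrane anchor, at 1.89 to Sdha, the flavoprotein that oxidises succinate, at 7.26. Complex III ran from Uqcrq at 0.432 to Uqcrh, the hinge protein next to cytochrome c1, at 21.3. Among expressed genes of complex IV, Cox5a was lowest at 1.24 and Cox7b highest at 21.0. Complex V ran from Atp5d, the delta subunit of the central stalk, at 0.738 to Atp5a1, the alpha subunit of the catalytic head, at 18.0. The assembly and associated factors were mostly low, from 0.188 for Atp5s to 2.34 for Ndufaf4, apart from Cox7a2l. This gene, whose product joins complexes III and IV into supercomplexes, had the highest WT level of the whole set at 24.8. Subunits of 1 complex, which stand in fixed numbers in the finished protein, thus differed many times over in this measure of their RNA.

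The RNA of the set was lower in Ezh1 KO than in WT. A log2 ratio was computed with a pseudocount of 0.1 for the 74 genes at 1 or more in the higher library. Their median was -0.32, where that of all 5201 genes tested was -0.13, and 68 of the 74 lay below 0, which is 91.9%, where 77.3% of all genes tested did. At 1.5-fold, 12 genes were lower in Ezh1 KO and 0 higher, where 2.73% of all genes tested were lower and 0.596% higher. Complex IV had the lowest median, -0.47 over 11 genes, all of them below 0. The medians were -0.31 for the 34 genes of complex I tested, -0.25 for the 4 of complex II, -0.36 for the 7 of complex III and -0.33 for the 14 of complex V.

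The 12 genes came from several complexes. Cox5b, a complex IV subunit, stood far from the rest and is described below. From complex IV came also Ndufa4 at 5.46 in Ezh1 KO and 9.06 in WT, Cox6c at 12.7 and 19.9, and Cox8a at 3.98 and 6.07. Complex I gave Ndufa13, whose log2 ratio was -0.78, Ndufc2 at 2.78 and 4.78, Ndufb2 at 0.882 and 1.54, and Ndufb5 at 3.58 and 6.04. The last 3 are accessory subunits of the membrane arm. Complex V gave Atp5k and Atp5l, the subunits e and g that help ATP synthase form dimers, and Atp5h, a subunit of the peripheral stalk. Atp5k was at 3.92 in Ezh1 KO and 6.31 in WT, Atp5l at 5.58 and 8.49, and Atp5h at 10.5 and 16.3. The remaining gene was Atp5sl, whose product acts in complex I assembly despite its name, at 0.766 and 1.30. The 11 log2 ratios other than that of Cox5b ran from -0.78 to -0.59. At the other end, Uqcr10 of complex III was at 1.19 in Ezh1 KO and 1.10 in WT and had the highest log2 ratio of the set, 0.10.

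In Ezh2 KO the genes lay closer to WT. Of 74 genes tested 48 were lower than in WT, which is 64.9%, where 56.4% of all genes tested were. Their median log2 ratio was -0.12, where that of all 5347 genes was -0.04. At 1.5-fold 5 genes were lower, where 2.81% of all genes tested were, and 0 were higher, where 3.39% of all genes were. These were Cox5b, Atp5k at 3.41 in Ezh2 KO and 6.31 in WT, Atp5sl at 0.690 and 1.30, Ndufb2 at 0.939 and 1.54, and Ndufa13 at 11.3 and 17.6. The largest log2 ratios above 0 were 0.36 for Cox6a1, at 3.83 and 2.95, and 0.34 for Cox5a, at 1.60 and 1.24. They were followed by Ndufa8, Ndufs5 and Atp5g3, at 0.30, 0.29 and 0.27. Complex V had 7 genes above and 7 below WT, and its median log2 ratio was -0.045.

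In double KO the set was again lower than in WT, with few genes far from the rest. Of 73 genes tested, 68 were below WT, which is 93.2%, where 67.1% of all genes were. The median log2 ratio was -0.28 where that of all 5313 genes was -0.10. At 1.5-fold 4 genes were lower, where 2.33% of all genes tested were, and 0 were higher, where 2.65% were. Beside Cox5b they were Atp5k at 3.84 in double KO and 6.31 in WT, Ndufb5 at 3.76 and 6.04, and Ndufv3, an accessory subunit near the NADH-binding site, at 5.33 and 8.45. Atp5l followed with a log2 ratio of -0.58. Above WT stood 5 genes, namely Ndufa8 at 0.12, Cox6a1 at 0.094, Atp5g3 at 0.045, Sdha at 0.018 and Cox5a at 0.016. Of the 73 genes at 1 or more in WT, 48 were lower in each of the 3 mutants than in WT, which is 65.8%, where 48.3% of all 5111 such genes were. The 3 ratios of a gene share its WT value, so this count does not come from 3 independent comparisons.

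**Figure D2:**
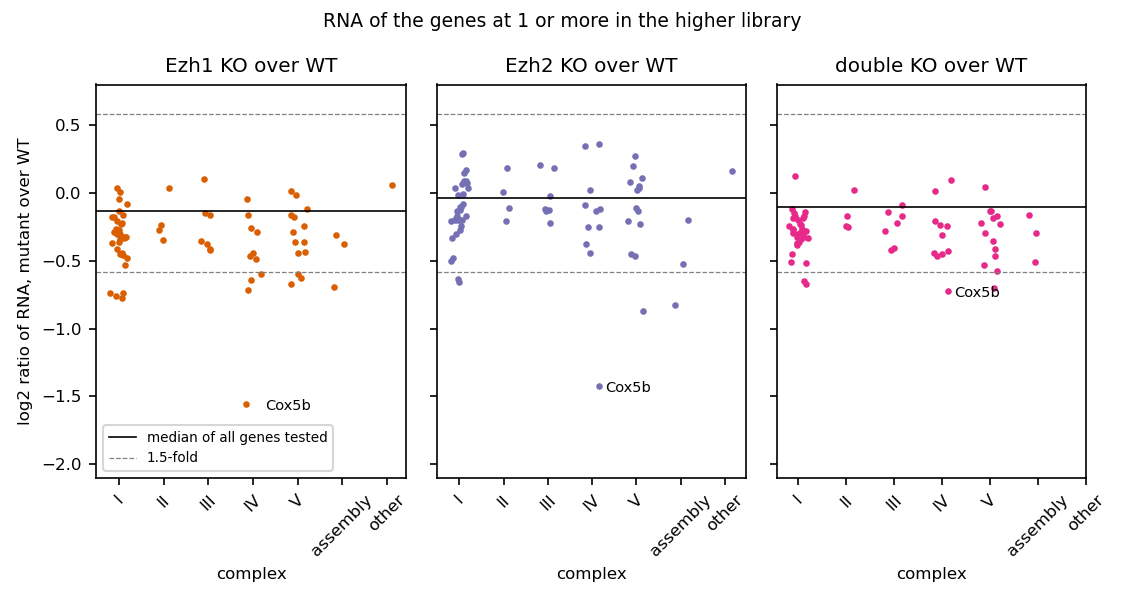
Log2 ratio of RNA of each gene at 1 or more in the higher library, for Ezh1 KO, Ezh2 KO and double KO over WT, by complex (1 library each). The solid line is the median of all genes tested (-0.13, -0.04 and -0.10), and dashed lines mark 1.5-fold. Most points lie below the solid line in the Ezh1 KO and double KO panels, and Cox5b lies lowest in all 3.

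Set directly against the single mutants, double KO cells were close to Ezh1 KO cells in this set. The median log2 ratio of double KO over Ezh1 KO was 0.048 over 72 genes, where that of all genes was 0.041. Of these genes 1, Cox5b, was at least 1.5-fold higher in double KO, where 2.59% of all genes were, and 0 were lower, where 0.589% were. Against Ezh2 KO the median was -0.18, where that of all genes was -0.063, and 2 of 73 genes were at least 1.5-fold higher, where 1.36% of all genes were, and 0 lower, where 1.72% were. The higher ones were Cox5b, and Atp5sl at 1.15 in double KO and 0.690 in Ezh2 KO.

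Several measured features of the libraries were set beside these RNA differences. The lower medians came from the 2 deepest libraries, Ezh1 KO and double KO. The summed T cell markers were below WT in all 3 mutants and close to equal among the mutants (228.9, 229.4 and 228.3, against 259.2 in WT). The median marker level was 12.5 in Ezh1 KO, 11.2 in Ezh2 KO, 13.6 in double KO and 12.2 in WT, and so was not below WT in each mutant. Of the 13 markers 9 were below WT in Ezh1 KO, 10 in Ezh2 KO and 9 in double KO. These are 69.2%, 76.9% and 69.2%, where 77.3%, 56.4% and 67.1% of all genes tested were below WT. The median log2 ratios of the markers were -0.17, -0.16 and -0.03, where those of all genes were -0.13, -0.04 and -0.10. Cd3e and Tcf7 were higher in each mutant than in WT. Genes with few exons, the structure of most of the set, were lower too. Over all genes with 2 to 5 exons the median log2 ratios were -0.20, -0.085 and -0.19 in Ezh1 KO, Ezh2 KO and double KO over WT, and over genes with 6 or more exons -0.11, -0.028 and -0.084. In the set, the 50 genes with 2 to 5 exons tested in Ezh1 KO had a median of -0.31 with 9 at least 1.5-fold lower, where 6.3% of all such genes were. The 24 genes with more exons had a median of -0.33 with 3 lower, where 1.02% of all such genes were. In Ezh2 KO and double KO the set's genes with 2 to 5 exons were nearer to all such genes. Their medians were -0.11 and -0.30, with 4 of 50 (8%) and 3 of 49 (6.12%) at least 1.5-fold lower. Of all such genes, 6.47% and 4.95% were. The 24 genes with more exons had medians of -0.13 and -0.26, with 1 lower in each mutant, where 0.965% and 1.13% of all such genes were. These classes were chosen after the values were seen. The part of depth and of the marker cells in the differences was not tested, and in bulk RNA fewer cells of a type and less RNA per cell cannot be told apart.

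Cox5b, a nuclear-encoded subunit on the matrix side of complex IV that binds zinc, was furthest from WT in the set. Its RNA was 5.47 in Ezh1 KO, 6.01 in Ezh2 KO, 9.83 in double KO and 16.3 in WT. All 3 mutants were below WT, and double KO lay between the single mutants and WT. The log2 ratios to WT were -1.56, -1.42 and -0.72 in Ezh1 KO, Ezh2 KO and double KO. Of all genes tested, 0.288% were at least 2-fold lower in Ezh1 KO and 0.393% in Ezh2 KO, and Cox5b was the 1 gene of the set among them in each case. Double KO over Ezh1 KO gave 0.83 and over Ezh2 KO 0.70. Its partner Cox5a was at 0.995, 1.60, 1.25 and 1.24 in Ezh1 KO, Ezh2 KO, double KO and WT, and so did not follow the same order.

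The size of the Cox5b difference depended on how its exons were summarised. By the median over exons it was at 4.43, 5.24, 5.95 and 7.79 in Ezh1 KO, Ezh2 KO, double KO and WT, and the log2 ratios to WT were then -0.80, -0.56 and -0.38. The gene has 4 exons, so the mean and the median together bound its highest one. That exon lay between 8.59 and 13.03 in Ezh1 KO, 8.34 and 13.6 in Ezh2 KO, 21.5 and 27.4 in double KO and 41.9 and 49.7 in WT. The mean of the other 3 exons lay between 2.96 and 4.43, 3.49 and 5.24, 3.97 and 5.95, and 5.19 and 7.79 in the same order. The ranges of the highest exon in single mutants, in double KO and in WT did not overlap, whereas those of the other exons overlapped between neighbouring libraries. The larger part of the difference in the mean therefore lay in 1 exon, which the files do not name.

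**Figure D3:**
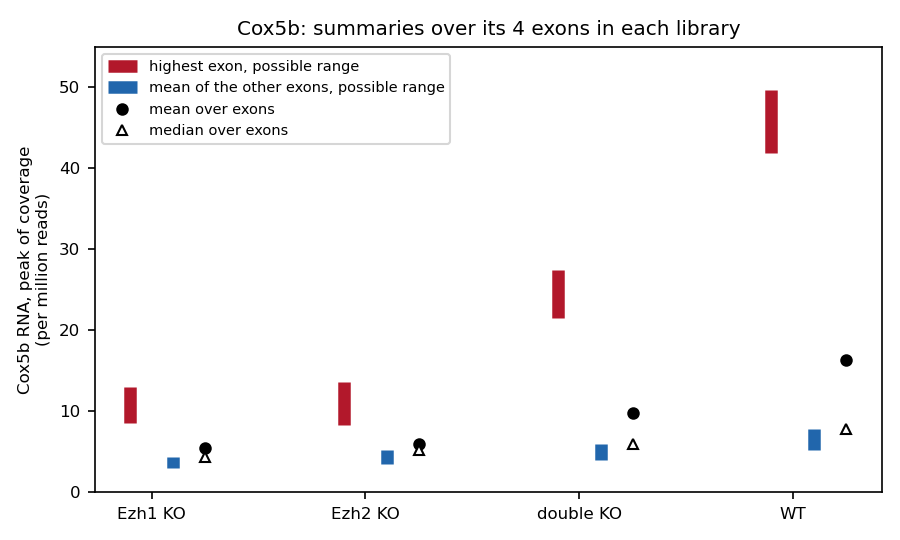
Cox5b RNA (peak of coverage per M reads) in the Ezh1 KO, Ezh2 KO, double KO and WT libraries. Bars give the range in which the highest exon (red) and the mean of the other 3 (blue) must lie, and symbols the mean and median over exons as deposited. The highest exon is between 41.9 and 49.7 in WT and under 14 in both single mutants.

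Cox5b also shares much of its sequence with other places in the genome, so its value is uncertain. Of its 277 stretches of 50 bases, the length of a read, 74.4% occur more than once in mm9, with copies on chromosomes 13, 8 and 4. The first exon, chr1:36748425-36748534, is repeated in full, exon 2 in 56%, exon 3 in 29.4% and the last, chr1:36750042-36750230, in 82.9% of such stretches. Per the labels, reads with more than 1 location were dropped. Exons 2 and 3, both coding, are shown because the first and the last exon also hold untranslated sequence. The exons shown hold all of the gene's repeat-free starts outside the last exon. Capitals mark each base at which a stretch of 50 bases found once in mm9 begins (plus strand, 5′ to 3′). They are at chr1:36749056-36749129 and chr1:36749296-36749395.
Cox5b exon 2: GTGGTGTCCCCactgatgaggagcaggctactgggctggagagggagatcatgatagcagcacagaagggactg
Cox5b exon 3: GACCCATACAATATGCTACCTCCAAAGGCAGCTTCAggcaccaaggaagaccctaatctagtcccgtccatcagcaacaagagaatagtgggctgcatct

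Other genes of the set are uncertain for the same reason. All 421 stretches of Atp5g2, a c subunit of the ATP synthase rotor, occur also on chromosomes 7 and 17, yet its RNA was 8.78 in Ezh1 KO, 9.37 in Ezh2 KO, 7.89 in double KO and 8.67 in WT. Whether the rule of a single location was applied to the RNA reads can thus not be read from these values. Repeats made up 95.4% of Atp5l, 63.5% of Uqcrb, 59.7% of Cox7a2l, 40.9% of Ndufs5, 29.3% of Cox7c, 27.7% of Ndufb4, 26.3% of Atp5g1, 21.9% of Cox8a and 19.5% of Atp5h. Over the genes with less than 10% repeated, the median log2 ratio to WT was -0.33 in Ezh1 KO, -0.12 in Ezh2 KO and -0.26 in double KO. In Ezh1 KO 7 of these 55 genes were at least 1.5-fold lower, where 2.73% of all genes tested were.

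Of each pair of complex IV isoforms, the widely expressed gene was on and the restricted one close to 0 in all 4 libraries. The isoform Cox4i2 of lung and hypoxic cells was at 0, 0.0049, 0.012 and 0.0055 in Ezh1 KO, Ezh2 KO, double KO and WT, and Cox4i1 at 12.3, 13.4, 12.7 and 14.7. Among muscle isoforms Cox7a1 was highest, at 0.028, 0.036, 0.036 and 0.030, against Cox7a2 at 3.97, 5.26, 4.50 and 5.60. Cox6a2 was listed at 0 in 3 libraries and at 0.0082 in Ezh2 KO, and Cox6a1 was between 2.86 and 3.83. Cox8b stayed between 0.012 and 0.025 and Cox8a between 3.98 and 6.07. Cox8c was not analysed here. No mutant thus had a muscle isoform anywhere near the level of its partner, and the summed level of 8 muscle and heart markers was at most 0.228 in any library.

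Testis isoforms were low as well. Cox6b2 was at 0.022, 0.029, 0.095 and 0.047 in Ezh1 KO, Ezh2 KO, double KO and WT, where Cox6b1 was at 13.5, 17.0, 13.5 and 18.4. Cox7b2 was at 0.0081, 0.0082, 0 and 0.018, where Cox7b was at 15.2, 17.6, 15.6 and 21.0. Ndufa4l2, which hypoxia induces in other cells, was between 0.0053 and 0.017, and Ndufa4 between 5.46 and 9.06. The 3 Atp5g genes encode the same mature c subunit with different import signals, and all were on. In WT Atp5g2 was at 8.67, Atp5g3 at 2.58 and Atp5g1 at 1.09, and this order held in each mutant.

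H3K27me3 was measured as the area of coverage per M reads over 6 kb around the start site, in bins of 25 bases. Background was taken as the median over 7077 windows, those of genes in the upper part of the WT RNA range (above the 66.7th percentile), 9.82 in Ezh1 KO, 11.1 in Ezh2 KO, 10.4 in double KO and 10.1 in WT. The set lay at that level: its median was 9.85, 11.3, 10.7 and 10.6, and that of all windows 14.1, 13.7, 13.7 and 13.5. Most genes of the set are themselves in that upper part of the RNA range, and their windows were kept in the background. The closeness of the set to background is therefore partly built in. A window was called marked at 4 times background, which was 40.6 in WT. In WT 1 of the 90 genes was marked, where 12.0% of all windows were, and 2, 1 and 2 were in Ezh1 KO, Ezh2 KO and double KO, where 16.9%, 7.49% and 12.7% of all windows were. Windows of 5 genes, Atp5a1, Atp5g2, Atp5o, Cox7a2l and Ndufs4, were listed at 0 in every library, and their RNA was 5.01 or more in WT. Of all 18603 windows, 539 in Ezh1 KO, 534 in Ezh2 KO, 539 in double KO and 542 in WT were at 0. Whether a window at 0 was measured is not given in the sources used here, so no level of the mark is read from it. These 5 remain in the count of 90 and in the medians of the set.

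The marked genes were 2 silent isoforms. Ndufa4l2 was at 63.9 in Ezh1 KO, 42.1 in Ezh2 KO, 45.6 in double KO and 44.3 in WT. Cox4i2 was at 62.7, 47.3, 58.2 and 40.05, just under the WT threshold. Their partners Ndufa4 and Cox4i1 were at 11.9 and 6.93 in WT. Cox6b2 was at 27.1, 21.2, 24.9 and 23.1, and Cox6b1 at 17.8, 13.5, 15.8 and 15.2. The other restricted isoforms were near background although they were silent. Cox6a2 was at 16.1, 13.6, 14.6 and 13.3 in Ezh1 KO, Ezh2 KO, double KO and WT, and Cox6a1 at 16.3, 13.7, 14.6 and 15.02. Cox7b2 was at 13.4, 14.2, 12.5 and 13.3, Cox8b at 11.6, 10.9, 9.18 and 10.6, and Cox7a1 at 9.57, 11.0, 8.19 and 8.21. Cox7a2 was at 10.9, 12.5, 9.62 and 12.0 and Cox8a at 8.77, 10.2, 7.45 and 9.66. These 4 silent isoforms thus lay in the range of expressed genes of the set. Among expressed genes the highest windows were those of Ndufa8 at 31.2, 26.7, 26.5 and 30.8, Ndufaf4 at 22.0, 19.7, 17.0 and 22.9, and Atp5k at 25.2, 22.0, 26.2 and 20.3.

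**Figure D4:**
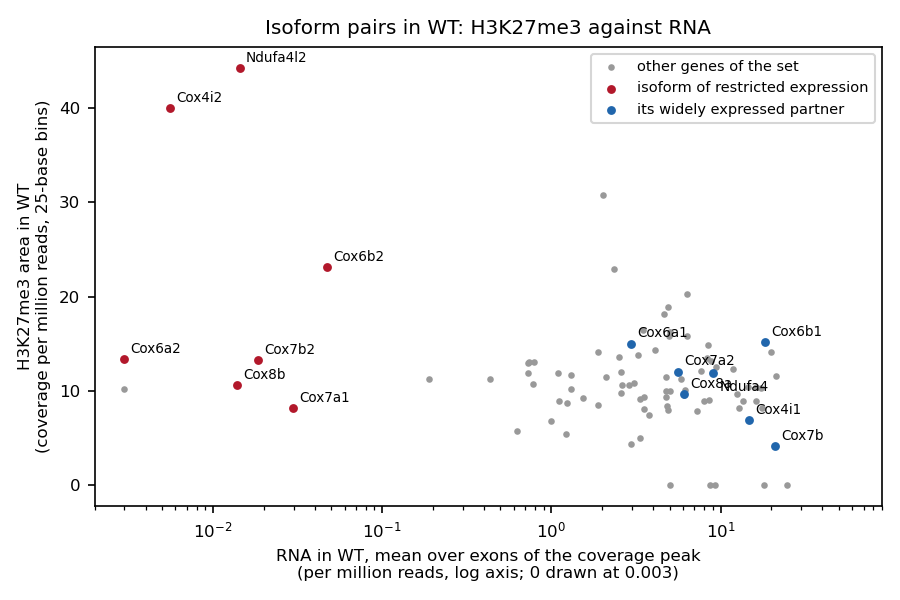
H3K27me3 area of the window (coverage per M reads) against RNA level (log axis) of the 90 genes in the WT library. Restricted isoforms are red and their widely expressed partners blue. Cox4i2 and Ndufa4l2 lie at 40.05 and 44.3 with almost no RNA, whereas Cox7a1 and Cox8b are as low in H3K27me3 as expressed genes.

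Promoter sequences were available from RefSeq for 74 of the 90 genes (GRCm38.p6, from 250 bases before to 50 after the start). Those of both testis isoforms and their partners, and of Cox5b, are shown because they set silent and expressed genes of the same subunit side by side. Cox6b2 is at chr7:4753045-4753344 and Cox6b1 at chr7:30626065-30626364, both on the minus strand. Cox7b2 is at chr5:71548156-71548455, minus strand, Cox7b at chrX:106015450-106015749, plus strand, and Cox5b at chr1:36691237-36691536, plus strand. Capitals mark a core motif of an activator of respiratory genes, TGCGCA for NRF1 or CCGGAAG (on the other strand CTTCCGG) for ETS factors such as GABP.
Cox6b2: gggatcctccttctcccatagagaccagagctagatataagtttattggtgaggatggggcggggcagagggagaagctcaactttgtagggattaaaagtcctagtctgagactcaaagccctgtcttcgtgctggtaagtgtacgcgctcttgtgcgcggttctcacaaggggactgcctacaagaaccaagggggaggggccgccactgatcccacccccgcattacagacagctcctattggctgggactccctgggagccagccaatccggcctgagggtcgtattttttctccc
Cox6b1: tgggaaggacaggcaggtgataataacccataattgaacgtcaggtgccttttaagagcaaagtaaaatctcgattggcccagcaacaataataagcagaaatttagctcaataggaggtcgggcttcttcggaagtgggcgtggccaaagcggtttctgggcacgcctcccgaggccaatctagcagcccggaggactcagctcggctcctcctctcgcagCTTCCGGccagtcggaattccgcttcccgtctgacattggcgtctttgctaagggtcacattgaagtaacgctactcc
Cox7b2: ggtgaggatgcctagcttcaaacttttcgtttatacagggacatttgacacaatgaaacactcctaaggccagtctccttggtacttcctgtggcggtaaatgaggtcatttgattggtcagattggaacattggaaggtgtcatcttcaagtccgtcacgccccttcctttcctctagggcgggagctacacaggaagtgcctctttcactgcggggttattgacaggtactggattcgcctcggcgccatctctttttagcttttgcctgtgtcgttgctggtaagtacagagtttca
Cox7b: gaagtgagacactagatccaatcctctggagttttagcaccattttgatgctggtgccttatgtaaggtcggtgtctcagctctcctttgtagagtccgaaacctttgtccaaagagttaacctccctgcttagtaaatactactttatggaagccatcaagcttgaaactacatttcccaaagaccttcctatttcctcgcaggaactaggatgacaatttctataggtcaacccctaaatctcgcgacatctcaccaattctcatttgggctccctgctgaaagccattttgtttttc
Cox5b: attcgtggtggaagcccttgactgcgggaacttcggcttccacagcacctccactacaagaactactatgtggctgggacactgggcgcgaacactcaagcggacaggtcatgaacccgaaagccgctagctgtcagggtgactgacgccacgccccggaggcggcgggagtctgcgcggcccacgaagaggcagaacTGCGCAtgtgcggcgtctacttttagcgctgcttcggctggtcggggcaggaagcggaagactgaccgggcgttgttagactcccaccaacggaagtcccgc

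In these windows Cox5b holds the NRF1 core 52 bases before the start, and Cox6b1 the ETS core 28 bases before it. Neither motif is in the windows of Cox6b2, Cox7b2 or Cox7b. CpG dinucleotides number 27 in Cox5b, 17 in Cox6b1, 10 in Cox6b2, 10 in Cox7b2 and 5 in Cox7b. Across the 74 promoters, searched on both strands, TGCGCA was found in 19, which is 25.7%, where 8.06% of all 27025 RefSeq promoters hold it. CCGGAAG was in 21.6%, against 9.12% of all promoters, and AAGATGG, the core of YY1, in 14.9%, against 6.48%. TATAAA was in 9.46%, against 14.2%. The median number of CpG was 19.5 in the set and 7 over all promoters. Of 4 matched genes with under 0.1 RNA in every library, 0 held one of the first 3 motifs, and 2 held TATAAA. Each of the first 3 motifs is in less than 10% of all promoters, so 0 of 4 does not set these genes apart. A match is a run of letters and not a shown binding site.

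Differences in H3K27me3 per M reads between genotypes were small in the set, and 85 windows above 0 were compared with a pseudocount of 1. No spike-in was used, so a gain or loss of the mark shared by a whole library would not show in these ratios. The median log2 ratio to WT was -0.02 in Ezh1 KO, 0.08 in Ezh2 KO and 0.03 in double KO, where all windows gave 0.09, -0.0087 and 0.05. These signs depended on the scaling, since each median crossed 0 when libraries were scaled to equal background (0.024, -0.038 and -0.0044). At 1.5-fold Cox4i2 was higher in Ezh1 KO, where 1.93% of all windows were higher and 0.256% lower, and Ndufa11 was higher in Ezh2 KO, where 0.606% were higher and 0.795% lower. None of the 85 windows was 1.5-fold different in double KO, where 1.14% of all windows were higher and 1.48% lower. By the highest bin of a window in place of its area, 8 genes were higher and 5 lower in double KO, where 3.99% and 3.77% of all windows were.

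**Figure D5:**
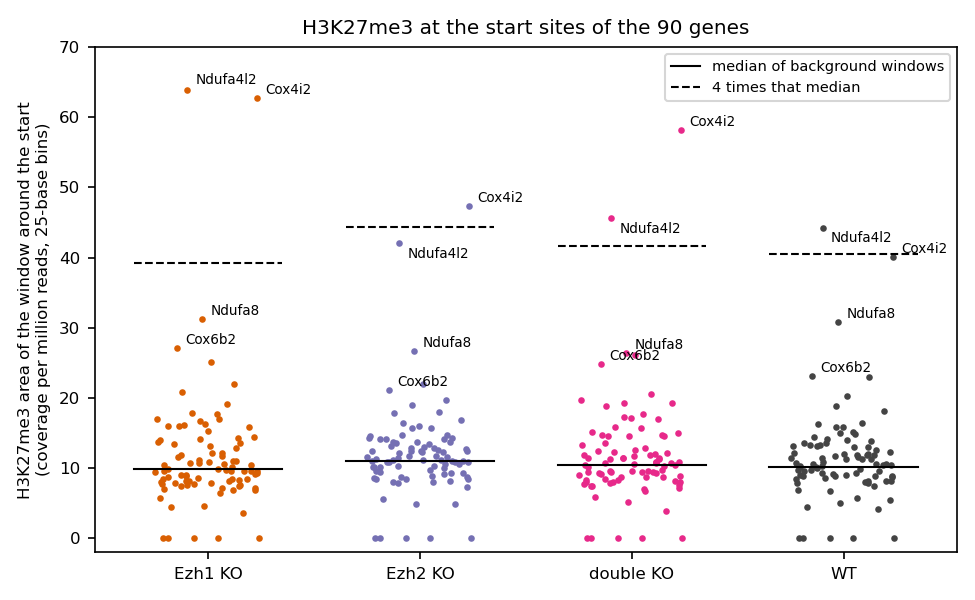
H3K27me3 area (coverage per M reads, 25-base bins) of the windows of the 90 genes in the Ezh1 KO, Ezh2 KO, double KO and WT libraries. Each point is a gene, the solid line the background median and the dashed line 4 times it. Cox4i2 and Ndufa4l2 stand above the other genes in all 4 libraries, and 5 genes are listed at 0.

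The windows furthest from WT are given with exact 95% intervals on their read equivalents, which cover counting error only. These windows were picked as the extremes of the same data, so an interval clear of 0 is no test of them. The intervals hold no pseudocount, whereas the log2 ratios beside them do, so the ratios and intervals are not of exactly the same quantity. The intervals also take the depth scaling as exact. Scaling to equal background would divide the areas by 0.968 in Ezh1 KO, 1.09 in Ezh2 KO and 1.03 in double KO, so bounds close to 0 depend on the scaling. In Ezh1 KO the log2 ratio of Cox4i2 was 0.63 (0.49 to 0.80, from 904 and 528 read equivalents in Ezh1 KO and WT), and that of Ndufa4l2 0.52 (0.38 to 0.68). These are also the windows with the highest H3K27me3 of the set. Such higher values were not confined to the set. The windows of the 8 muscle and heart markers had a median log2 ratio of 0.38 in Ezh1 KO, with 8 above 0. For 10 markers of myeloid cells it was 0.078, with 6 above 0 and 4 below. Of all windows 16.9% were marked in Ezh1 KO and 12.0% in WT. Whether the 2 isoforms differ from other marked windows was not tested. Atp5d and Ndufc1 followed at 0.36 and 0.35. At the low end were the beta subunit gene Atp5b at -0.50 (-0.94 to -0.18), Ndufa2 at -0.47, Ndufb3 at -0.46, Ndufs1 at -0.45 and Sdhd at -0.44.

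In Ezh2 KO, Ndufa11 was at 8.68, against 5.41 in WT, and its log2 ratio was 0.59 (0.26 to 1.15). Cox5b, the gene with the lowest RNA ratio, came next with 12.5 and 8.89 and a log2 ratio of 0.44 (0.13 to 0.84), far under the level of a marked window. Ndufs6, Ndufaf3 and Cox7a1 were at 0.43, 0.41 and 0.38. Ndufaf1, an assembly factor of complex I, was lowest at -0.39 (-0.77 to -0.083), followed by Ndufv2 at -0.31, Ndufaf2 at -0.27, Atp5b at -0.25 and Sdhb at -0.23. Ndufa4l2 had a log2 ratio of -0.072 (-0.24 to 0.097), and at 42.1 it was not marked in Ezh2 KO, where the threshold was 44.3.

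In double KO the highest ratios were those of Atp5d, at 0.56 (0.31 to 0.87) with 19.7 in double KO and 13.1 in WT, and of Cox4i2, at 0.53 (0.38 to 0.70). Ndufa11 was at 0.41, Atp5e at 0.36 and Ndufa6 at 0.36. The lowest were Ndufaf1 at -0.43 (-0.81 to -0.14), Ndufaf4 at -0.41, Ndufb3 at -0.36, Uqcrh at -0.36 and Cox8a at -0.34. Cox5b was at 0.33 (0.018 to 0.72), with 11.4 and 8.89. Windows whose interval lay above 0 numbered 8 in Ezh1 KO, 8 in Ezh2 KO and 10 in double KO, and those whose interval lay below 0 numbered 8, 1 and 6. Of the set these are 9.41%, 9.41% and 11.8% above and 9.41%, 1.18% and 7.06% below, where all windows gave 29.0%, 8.32% and 18.4% above and 4.67%, 15.7% and 9.26% below. Double KO over Ezh1 KO gave -0.48 (-0.63 to -0.34) for Ndufa4l2 and -0.11 (-0.25 to 0.028) for Cox4i2.

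Ndufa1, Ndufb11 and Cox7b are on the X chromosome, and their windows were between 3.66 and 5.88 in every library. The background windows on X had a median of 5.30, 5.95, 5.72 and 5.33 in Ezh1 KO, Ezh2 KO, double KO and WT, where those on autosomes had 10.1, 11.3, 10.6 and 10.3. All 3 genes thus lay near the X background. In 34 of the 90 windows another protein-coding gene also starts, and the median there was 10.2 in WT, where it was 11.3 in the other 56. Cox4i1 shares its window with Cox4nb, which starts 178 bases away, and Ndufa8, the expressed gene with the highest window, shares it with Morn5, which starts 52 bases away. Such a window cannot be given to 1 of its genes.

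Other genes of energy metabolism, those of glycolysis among them, were listed by function. The lists lay nearer to the all-gene medians than the set did in Ezh1 KO and double KO, and not in Ezh2 KO for 3 of the 4 lists. None of these differences between lists was tested. For 16 enzymes of the tricarboxylic acid cycle, 15 of them tested, the median log2 ratio minus that of all genes was -0.086 in Ezh1 KO, -0.11 in Ezh2 KO and -0.089 in double KO, and 0 were 1.5-fold from WT. In double KO the ratios ran from -0.37 for Suclg1 to -0.0072 for Dlst. For glycolysis, 18 genes of which 11, 11 and 12 were tested, the same difference was 0.029, 0.13 and -0.065. Tpi1 at 0.888 in double KO and 1.44 in WT was lowest with -0.65, and Ldhb at 1.14 and 0.729 highest with 0.58.

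A list of 31 other chain, carrier and assembly genes was at 0.0039, 0.17 and -0.030 relative to all genes in Ezh1 KO, Ezh2 KO and double KO, and among its 16 genes tested in double KO Atpaf1 was lowest at -0.49 and Etfa highest at 0.23. Regulators of mitochondrial biogenesis, 20 genes of which 9 were tested, were at 0.066, 0.076 and -0.025. Mterf, a regulator of mitochondrial transcription, was 1.5-fold lower in each mutant, at 0.705, 0.654, 0.778 and 1.23 in Ezh1 KO, Ezh2 KO, double KO and WT. Polg, the mitochondrial DNA polymerase, had the highest ratio in double KO with 0.16. Nrf1, the factor whose core motif is in Cox5b, was at 1.43, 1.43, 1.44 and 1.44, and Yy1 at 6.37, 6.61, 6.70 and 6.44, each within a narrow range. By H3K27me3 the medians of these 4 lists differed from those of all windows by -0.16 to 0.19, and the set of 90 by -0.11 to 0.090.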

How the data were processed

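Per the labels, reads of 50 cycles were aligned to mm9 with Bowtie 0.12.7, and those with at most 2 errors at a single location were kept. bcl2fastq, Cufflinks and Cuffdiff are named in the submitters' processing notes with no role. Per the file headers, the deposited values are coverage signal: for RNA a mean and a median of exon coverage peaks per gene, and for ChIP a window's area and its highest bin. From the values, both are per M reads, and a read is extended to 151 bases in the ChIP files. Another deposited RNA column holds the number of exons, per the file headers. The exact computation, and any subtraction of input, is not given in the sources used here, and input and spike-in were not used here.

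Values were used as deposited, and depth came from the height of 1 read. Log2 ratios had a pseudocount of 0.1 for RNA and 1 for ChIP, over features at 1 or more in the higher library. With 1 library a group there was no test; counts at 1.5-fold and 2-fold are given beside the share of all features. Counting intervals are exact (Clopper-Pearson, 95%) and cover counting error only, since PCR reads are not independent molecules. The plan allowed for counts, but the files hold signal. The genes, the lists and the rules were chosen with earlier results of these data known. Named genes were the highest and lowest of each complex in WT, the isoform pairs, all genes 1.5-fold from WT in RNA (filled up to 5 each way), all marked windows and the 5 highest and lowest ChIP ratios; promoters were those of Cox5b and of the isoform pairs furthest apart in H3K27me3 with both promoters in the table. A gene that the rule names in the ChIP comparison of Ezh1 KO with WT is not reported here. Suclg1, Dlst, Tpi1, Ldhb, Atpaf1, Etfa, Mterf and Polg are the extremes of their lists in double KO; Cox5a, Nrf1, Yy1, Ndufa8, Ndufaf4 and Atp5k windows and Uqcr10 RNA were named after their values were seen. Alternatives were other scalings (TMM, median of ratios, equal background), pseudocounts, minimums, folds and columns. Repeats were counted as exact 50-base matches on both strands of the mm9 chromosomes. Functions were checked on simulated data. Python 3.11.15 was used with numpy 2.4.6, pandas 2.3.3 and scipy 1.17.1.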

Additional observations from a re-analysis of the deposited data

Results flagged for a closer look

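Cox5b and Atp5sl stood out because loss of an enzyme went with opposite differences depending on whether the other enzyme was present. Each value compares 2 libraries, and the difference between the 2 contrasts was not tested. The rule was applied to the 90 genes only, so the share of all genes that meet it is not known. Of the Cox5b stretches of 50 bases 74.4% are repeated in mm9, and Atp5sl was under the minimum of 1 in both single mutants. For Cox5b RNA, loss of Ezh2 went with a log2 ratio of -1.42 (Ezh2 KO over WT) and of 0.83 where Ezh1 was also absent (double KO over Ezh1 KO). Loss of Ezh1 went with -1.56 (Ezh1 KO over WT) and 0.70 (double KO over Ezh2 KO). For Atp5sl RNA, loss of Ezh1 went with -0.69 (Ezh1 KO over WT) and 0.66 (double KO over Ezh2 KO), from levels of 0.766 in Ezh1 KO, 0.690 in Ezh2 KO, 1.15 in double KO and 1.30 in WT. The 2 contrasts of each gene together use all 4 libraries, so they are 1 pattern and not several. By the median over exons the Cox5b ratios to WT were smaller, -0.80 in Ezh1 KO and -0.56 in Ezh2 KO, and those of double KO were 0.42 over Ezh1 KO and 0.18 over Ezh2 KO, both under 1.5-fold.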

How the results depend on the processing

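No paired analysis was possible because each genotype and assay has 1 library, and for the same reason no library could be left out. TMM scaling moved the median of all genes from -0.13 to -0.023 in Ezh1 KO and from -0.10 to 0.016 in double KO against WT, and the set's median kept its sign there (-0.21 and -0.17). Of 12 genes 1.5-fold lower in Ezh1 KO, 7 were counted by TMM scaling, 7 by median-of-ratios scaling, 6 with pseudocount 1, 7 among genes with few repeats and 1 at 2-fold. Of 5 lower in Ezh2 KO, 3 were counted with pseudocount 1, 3 with minimum 4 and 1 at 2-fold, and by the median over exons 1 gene (Cox5a, log2 ratio 0.64) was higher, against 0. Of 4 lower in double KO, 1 was counted by TMM scaling, 2 by median of ratios, 2 with pseudocount 1 and 0 at 2-fold. With no minimum the set's median minus that of all genes was -0.27, -0.16 and -0.22 in Ezh1 KO, Ezh2 KO and double KO over WT, against -0.19, -0.081 and -0.18, and 0.053 in double KO over Ezh1 KO, against 0.0062. With minimum 4 it was -0.067 in double KO over Ezh2 KO, against -0.12. For ChIP, the highest bin in place of the area gave -0.0058 and 0.022 in Ezh1 KO and Ezh2 KO over WT, against -0.11 and 0.090, and -0.018 and -0.014 in double KO over Ezh1 KO and Ezh2 KO, against 0.10 and -0.076. It also gave 8, 4 and 8 genes higher and 0, 5 and 5 lower (pseudocount 0.01), where 5.85%, 3.68% and 3.99% of all windows were higher and 1.87%, 2.75% and 3.77% lower. The 1 gene higher in Ezh1 KO became 0, and 1 (Atp5b) became lower, under TMM and under median-of-ratios scaling, and it became 0 with pseudocount 10 and at 2-fold. The 1 gene higher in Ezh2 KO became 0 with background scaling, with pseudocount 10, at 2-fold and among windows with no other start. In double KO 1 gene (Atp5d) was higher with pseudocount 0.1. The cause of these shifts was not tested. The alternatives with few repeats, without Cox5b, with no other start and with the highest bin's pseudocount were chosen after seeing the data. Of the medians and counts of the set under alternatives, 38 moved and 161 did not. A rescaling hardly moves a median taken relative to all genes, and many counts were 0 throughout, so the 161 do not measure stability. Of values of single genes, complexes and marked windows, 670 moved and 4966 did not.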
